A study of Bos taurus with 12 samples.

Results

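Translation factors and aminoacyl-tRNA synthetases were compared between the stroma and the epithelium of the bovine mammary gland. Members were taken by gene symbol alone: initiation factors have symbols that begin with EIF and a digit, elongation factors have symbols that begin with EEF and a digit, and the synthetases have the symbols of the enzymes that charge tRNA. Of 24128 probe sets on the array, 113 had such a symbol. Of these, 6 are control probe sets of the array for EEF1A1 and EIF4E, and the other 107 stand for 79 genes (40 initiation factors, 10 elongation factors and 29 synthetases) of 9155 genes with a symbol.

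Mammary tissue came from 6 dry, pregnant cows 3 weeks before calving, of which 4 had lactation number 1, 1 had lactation number 2 and 1 had lactation number 3. Explants of every cow were held in culture for 2 h with BrdU, a thymidine analog that labels DNA synthesis, and the hormones insulin and hydrocortisone, so no array is of untreated tissue. Intralobular stroma and epithelium were taken from sections of each cow by laser capture. Lysates were pooled from 2 slides for epithelial and 4 slides for stromal captures, so the number of slides differs with the tissue. The amplified RNA was hybridized to the Affymetrix Bovine GeneChip, which gave 6 stromal and 6 epithelial arrays. Per the methods, the stromal captures were aimed at fibroblasts and steered clear of vessels and visible immune cells, but cells other than fibroblasts can be part of them. The values are log2 signals from RMA, a method that corrects, normalizes and summarizes the probes of each probe set. Differences are stroma minus epithelium on that scale, so a negative difference means a lower signal in stroma. RMA sets all arrays to the same distribution, so each difference is relative to the other transcripts of the array, and in bulk captures fewer cells of a type and less RNA per cell cannot be told apart.

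Protein synthesis begins when initiation factors bring the initiator tRNA and the small ribosomal subunit to the cap of an mRNA and find the start codon. Elongation factors then deliver charged tRNAs to the ribosome and move it along the mRNA, and each aminoacyl-tRNA synthetase joins one amino acid to its tRNA, in the cytosol or in mitochondria. Both steps are regulated: phosphorylation of eIF2 slows initiation, binding proteins that respond to the TOR kinase hold the cap-binding protein, and phosphorylation of eEF2 slows elongation. The mammary epithelium of a cow close to calving is preparing to make milk proteins, which it does in large amounts in lactation.

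The marker genes followed the labels of the captures. Of 11 luminal epithelial markers 10 were past the threshold and lower in stroma, the exception being MUC1, and the 10 tested fibroblast markers were all past it and higher. An 11th fibroblast marker, THY1, was too dim to be tested and lower in stroma in 5 of 6 cows, at -1.45. The mean signal of the luminal markers lay between 4.36 and 5.97 in stroma and between 7.44 and 8.49 in epithelium, and that of the fibroblast markers between 9.65 and 10.39 in stroma and between 3.47 and 5.67 in epithelium. Endothelial, plasma cell, macrophage and myoepithelial markers also had a higher mean in stroma, each in 6 of 6 cows, but single markers did not all follow. Of 5 tested myoepithelial markers only MYLK passed the threshold, and KRT5 and KRT14 were higher in stroma in 4 of 6 cows. Of 5 tested macrophage markers only MSR1 passed, and CD14 differed by -0.02. The plasma cell mean rests on 2 genes. For T and NK cells the mean was higher in stroma in 4 of 6 cows, by 0.20. The median of each array lay between 2.95 and 3.08. The polyadenylated control RNAs read between 4.01 and 10.99 in stroma and between 2.96 and 6.68 in epithelium, with the highest stromal values in cows 5 and 6. The part of this mixture of cells and of the control RNA in the differences below was not tested.

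The members had, on balance, a lower signal in stroma, but few of them passed the test one by one. Of the 79 genes, 65 were among the brightest 42% of probe sets and were tested (35 initiation factors, 7 elongation factors and 23 synthetases), each by its brightest probe set. Past an adjusted p of 0.05 were 3 of the 65, EIF2B2, EIF6 and MARS2, each lower in stroma, and 0 were higher. Over all 5244 tested genes the share past the threshold was 9.00%, with 4.54% lower and 4.46% higher in stroma, so the share of members called lower (3 of 65) was close to that of all genes. At an unadjusted p under 0.05, 11 of the 65 were lower in stroma and 0 higher (all genes: 23.0% in either direction, 14.6% lower).

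The direction of the differences is given as a description, without a test. The stromal mean was below the epithelial mean in 55 of 65 members, against 59.9% of all tested genes. The signal was lower in stroma in all 6 cows for 9 of 65 members, against 9.57% of all tested genes. No member was higher in stroma in all 6 cows, against 6.96% of all tested genes. The median difference was -0.36 for initiation factors, -0.57 for elongation factors and -0.67 for synthetases, against -0.20 for all tested genes. The members were brighter than the rest, with a median signal of 6.66 against 5.27 for all tested genes, and the median of all probe sets moved with brightness: among the brightest 5000 it was -0.31, against -0.44, -0.55 and -0.79 for the 28 initiation factors, 6 elongation factors and 14 synthetases there. With no filter on dim probe sets the medians over the 40, 10 and 29 genes were -0.44, -0.42 and -0.39, against 0.07 over all probe sets. Of the 65 members, 16 differed by more than 1, 15 of them lower in stroma, against 28.9% of all tested genes (18.8% lower in stroma).

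**Figure D1:**
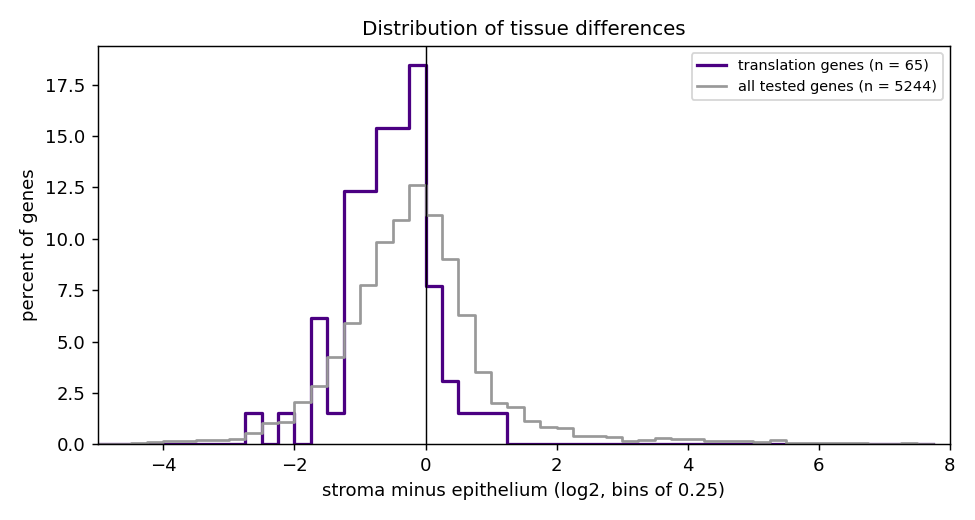
Share of genes (vertical axis, percent) by their stroma minus epithelium difference (horizontal axis, log2, in bins of 0.25) for the 65 tested translation genes (purple) and all 5244 tested genes (grey). The translation genes run between -2.74 and 1.15 and lie mostly below 0, while the grey curve reaches farther on both sides.

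**Figure D2:**
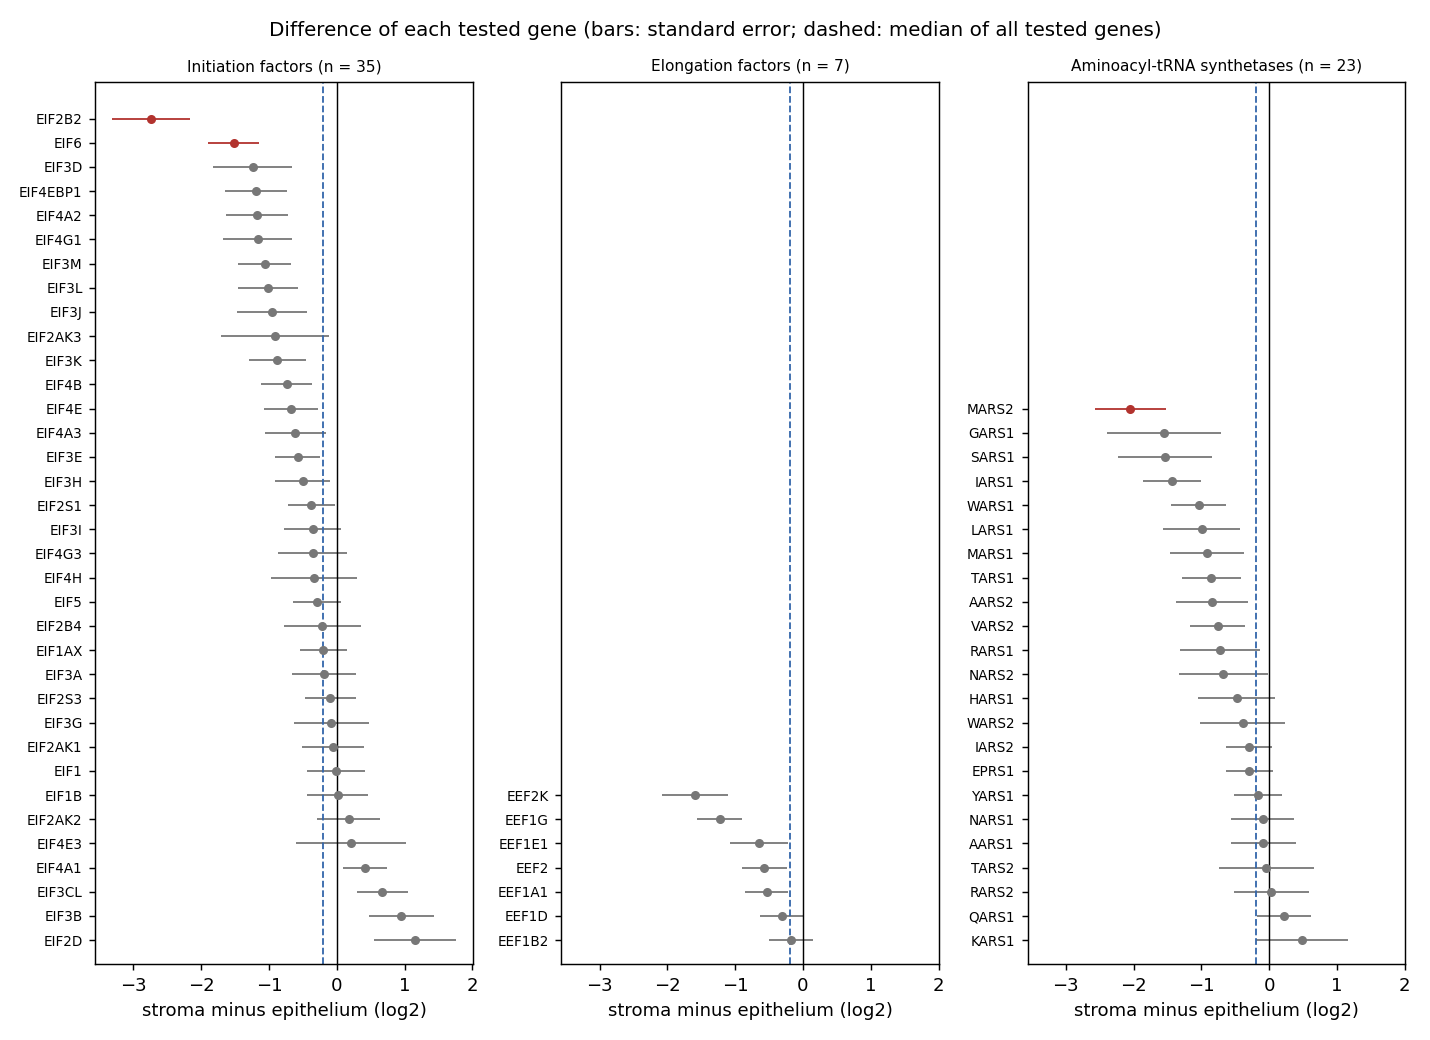
Stroma minus epithelium difference (log2) of each tested initiation factor, elongation factor and synthetase, with the standard error as bar. Red marks the 3 genes past an adjusted p of 0.05, and the dashed line marks the median of all tested genes, -0.20. All 7 elongation factors, 28 of 35 initiation factors and 20 of 23 synthetases lie below 0.

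Cow by cow, the medians of the 3 groups were below 0 in each of the 6 cows. The initiation factors ran from -0.91 in cow 5 to -0.13 in cow 2, and the elongation factors from -0.83 in cow 1 to -0.26 in cow 4. The synthetases varied most, with -1.20 in cow 6 and -0.06 in cow 4. Against the median of all tested genes in the same cow, which ran from -0.26 to -0.03, the initiation and elongation factors were lower in 6 of 6 cows and the synthetases in 5 of 6. The exception was cow 4, where the synthetases stood 0.17 above all tested genes.

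**Figure D3:**
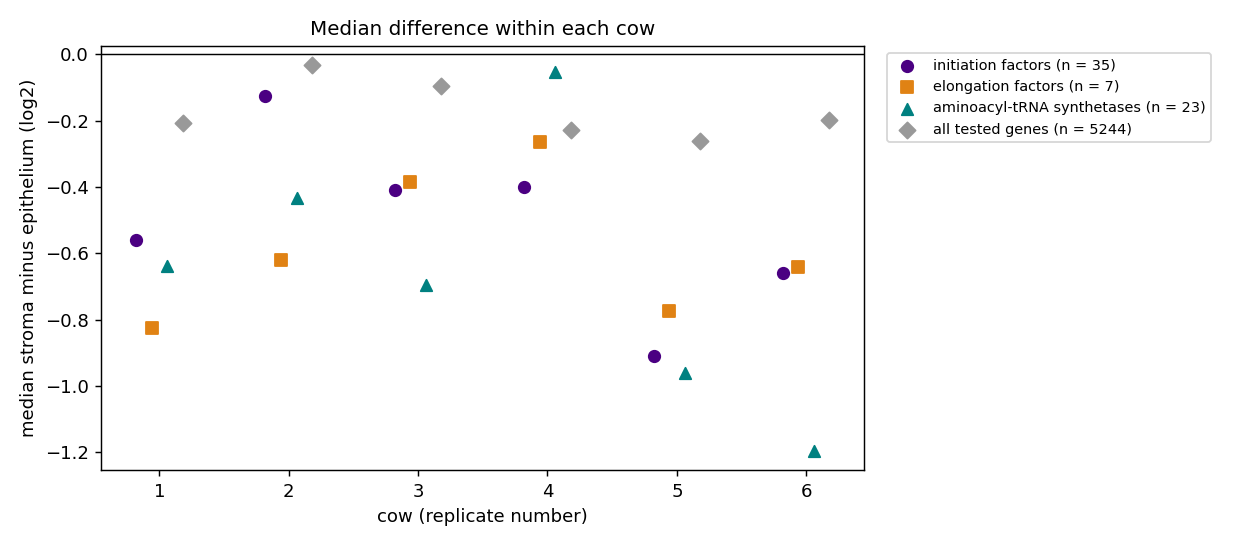
Median stroma minus epithelium difference (vertical axis, log2) within each cow (horizontal axis) for the 35 initiation factors, 7 elongation factors, 23 synthetases and all 5244 tested genes. The grey diamonds of all genes stay between -0.26 and -0.03, and the synthetases spread from -1.20 to -0.06.

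Among the factors that bring the initiator tRNA, the exchange factor of eIF2 held the largest difference of all members. EIF2B2, the beta subunit of eIF2B, which recharges eIF2 with GTP, had a lowest, median and highest signal of 2.55, 3.46 and 5.38 in stroma, against 5.53, 6.26 and 7.60 in epithelium. The tissues did not overlap, which was so for 2 of 65 members and 6.35% of all tested genes, and the signal was lower in stroma in all 6 cows, by 4.77 in cow 3 and by 0.15 in cow 4. The mean was 3.56 ± 0.99 in stroma and 6.30 ± 0.71 in epithelium (SD, n = 6 each), a difference of -2.74 (SE 0.57, 6.68-fold lower, limma adjusted p = 0.0188). The lowest stromal signals, 2.55 in cow 5 and 2.82 in cow 3, lay below the array medians, and the values hold no measure of background. The adjusted p was 0.0542 without cow 1, 0.0512 without cow 6 and 0.121 without cows 5 and 6.

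The rest of this step showed smaller differences, and none of them passed the test. EIF2B4, the delta subunit of eIF2B, averaged 6.34 ± 0.63 in stroma and 6.56 ± 1.19 in epithelium (adjusted p = 0.857), and EIF2B1 and EIF2B3, the alpha and gamma subunits, were too dim to be tested. EIF2S1, the alpha subunit of eIF2 that the stress kinases phosphorylate, differed by -0.37 (SE 0.34, adjusted p = 0.554). Of those kinases, EIF2AK3, the sensor of unfolded proteins in the endoplasmic reticulum, ranged widely, between 1.84 and 6.12 in stroma and between 2.71 and 6.39 in epithelium, and was lower in stroma in 3 of 6 cows (difference -0.91, 95% interval -2.71 to 0.90). EIF2AK1 and EIF2AK2, the kinases that respond to heme and to double-stranded RNA, differed by -0.05 and 0.17 in their brightest probe sets, and the second probe set of EIF2AK1 gave 0.87 (SE 0.44, adjusted p = 0.270). EIF2D, which can place tRNA on the ribosome without GTP, had the largest difference in the other direction. It averaged 5.21 ± 0.98 in stroma and 4.06 ± 1.30 in epithelium and was higher in stroma in 5 of 6 cows, and the difference of 1.15 did not pass the test (SE 0.60, adjusted p = 0.287).

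The factors that select the start codon had small differences. By their brightest probe sets EIF1, EIF1AX, EIF1B and EIF5 differed by between -0.28 and 0.01. The second probe set of EIF1, too dim to be tested, gave 0.44, and that of EIF5 gave -0.48 without passing the test. EIF1AX, which helps the small subunit scan and had the brightest probe set of the initiation factors, averaged 9.13 ± 0.63 in stroma and 9.32 ± 0.36 in epithelium, and its 95% interval ran from -0.97 to 0.58.

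The eIF3 complex, the large scaffold that holds the small subunit open for the mRNA, was represented by 12 genes, all tested. The mean was lower in stroma for 10 of the 12, with a median of -0.54, and none passed the adjusted threshold. EIF3M had the smallest p of the complex: its lowest, median and highest signal was 4.78, 6.97 and 7.73 in stroma, against 7.17, 7.89 and 8.35 in epithelium, a difference of -1.06 (SE 0.39, adjusted p = 0.138). It was lower in stroma in all 6 cows although the tissues overlapped, and so was EIF3E, at -0.57 (adjusted p = 0.335). EIF3D, a subunit that can itself bind the cap of some mRNAs, had the largest difference of the complex, -1.24, but only 4 of 6 cows shared its direction and the standard error was 0.58 (adjusted p = 0.239). The 2 subunits with a higher stromal mean were EIF3B, at 0.95 (adjusted p = 0.269), and EIF3CL, the symbol of a copy of subunit c, at 0.67 (adjusted p = 0.328). EIF3C and EIF3CL are near-identical in human, so the probe set may read both.

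At the cap of the mRNA, the means of the helicase paralogs lay on opposite sides between the tissues. EIF4A2, a helicase that unwinds the start of mRNAs, had a lowest, median and highest signal of 6.34, 8.76 and 9.31 in stroma, against 9.13, 9.45 and 10.18 in epithelium. Its difference was -1.18 (SE 0.46, adjusted p = 0.162). The lowest stromal signal of EIF4A2 was 6.34 in cow 5, and the next lowest was 7.92 in cow 6. EIF4A1, its paralog, had 8.77, 9.16 and 9.61 in stroma, against 8.20, 8.80 and 9.36 in epithelium, a difference of 0.42 (SE 0.32, adjusted p = 0.483). Within cows EIF4A2 minus EIF4A1 was lower in stroma in 6 of 6, by 1.59 on average (SD 1.38), but the exact sign-flip permutation test gave p = 0.0312, the smallest that 6 cows allow, and 0.172 after adjustment over the 11 pairs compared.

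Of the 7 other tested members of the cap-binding machinery, 6 had a lower mean in stroma, and 0 passed the adjusted threshold. Over all 9 tested genes at the cap, the helicases included, the median was -0.68. EIF4E, the protein that binds the cap, averaged 8.35 ± 0.78 in stroma and 9.03 ± 0.44 in epithelium (difference -0.68, adjusted p = 0.352). EIF4G1, the scaffold that joins it to the helicase and to eIF3, differed by -1.16 (SE 0.51, adjusted p = 0.210) and was lower in stroma in cows 3 to 6 but not in cows 1 and 2. EIF4EBP1, which holds EIF4E back until the TOR kinase phosphorylates it, ran from 3.91 to 4.96 in stroma and from 4.26 to 7.25 in epithelium, with a difference of -1.19 (SE 0.45, adjusted p = 0.153). Neither the inhibitor nor the scaffold passed the test.

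EIF6 was the second initiation symbol past the threshold, although its product acts at a different place: it keeps the large ribosomal subunit from joining the small one too early and takes part in making that subunit. Its lowest, median and highest signal was 4.23, 5.70 and 6.59 in stroma, against 6.16, 6.96 and 8.01 in epithelium. The tissues overlapped, but the signal was lower in stroma within all 6 cows, by between 0.28 in cow 2 and 2.14 in cow 4. The difference was -1.52 (SE 0.38, 2.87-fold lower, limma adjusted p = 0.0388). The call did not hold without cow 1, 3, 4, 5 or 6 (adjusted p 0.0749 to 0.116) and held without cow 2 (0.0390). Over all alternatives of the processing EIF6 passed in 7 of 15.

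**Figure D4:**
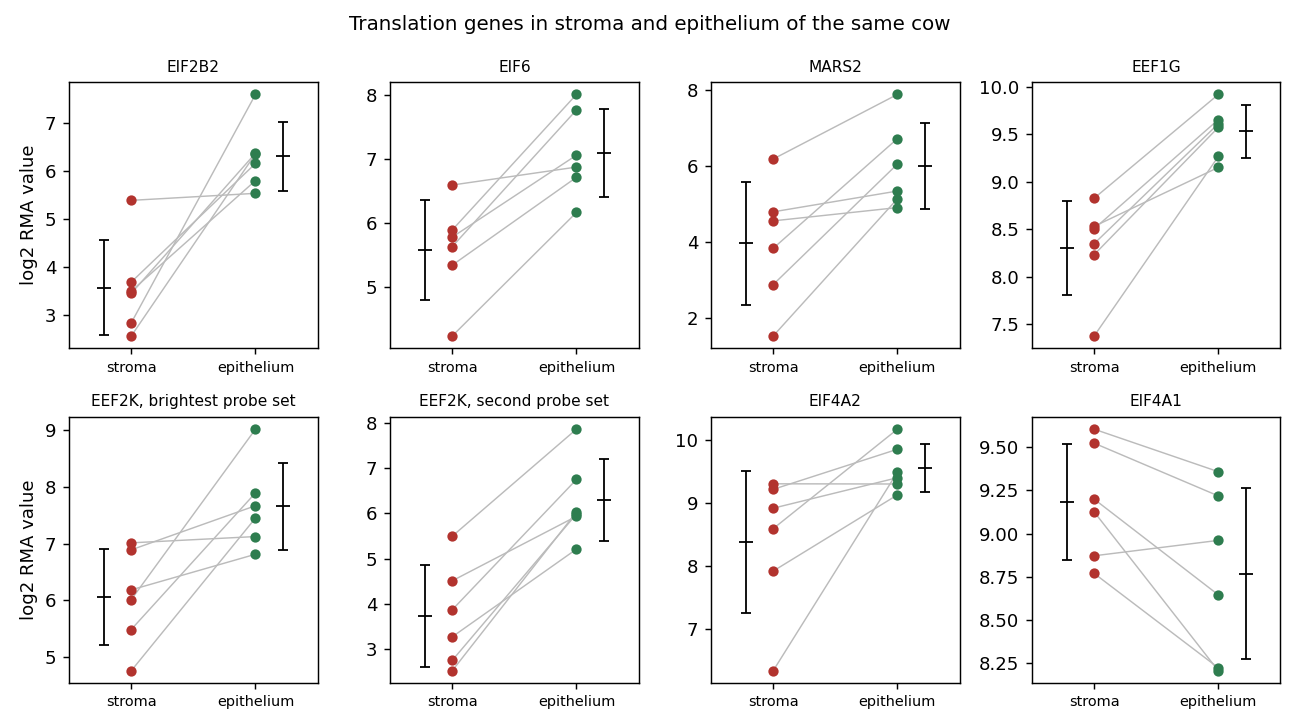
RMA signal (vertical axis, log2; each panel has its own range, not starting at 0) of 7 translation genes in stroma (red, left) and epithelium (green, right), with grey lines joining the arrays of one cow and black bars for the mean and SD of 6 arrays. EIF2B2 and EEF1G do not overlap between tissues, EIF6, MARS2 and both EEF2K probe sets are lower in stroma in every cow, and the mean of EIF4A2 is lower and that of EIF4A1 higher in stroma, with neither past the threshold.

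Of the elongation factors, 7 of 10 genes were tested, and each had a lower mean in stroma, although 0 passed the adjusted threshold. EEF1G, a subunit of the complex that recharges eEF1A with GTP, came closest. Its lowest, median and highest signal was 7.38, 8.43 and 8.83 in stroma, against 9.15, 9.59 and 9.92 in epithelium. The tissues did not overlap, and the difference of -1.23 (SE 0.33, 2.34-fold lower) had an adjusted p of 0.0532, just above the threshold. It passed in 6 of 15 alternatives, and with no block for the cow its adjusted p was 0.0288. The other subunits of that complex were closer between tissues: EEF1D differed by -0.31 (SE 0.33, adjusted p = 0.618) and EEF1B2 by -0.17 (SE 0.33, adjusted p = 0.795).

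EEF2K, the kinase that phosphorylates eEF2 and so slows elongation, had 2 probe sets that were both lower in stroma in all 6 cows. The brighter one read 4.77, 6.10 and 7.01 (lowest, median and highest) in stroma, against 6.81, 7.56 and 9.01 in epithelium, a difference of -1.60 (SE 0.49, adjusted p = 0.0797, and 0.0488 with no block for the cow). The second read 2.52, 3.57 and 5.50 in stroma, against 5.21, 6.01 and 7.86 in epithelium, a difference of -2.56 (SE 0.39, 5.90-fold lower, limma adjusted p = 0.00463). Its lowest stromal signals lay below the array medians, so the fold carries the same limit as that of EIF2B2. Only in this second probe set did a member stay past the threshold under each alternative in which it was tested, 13 of 13, with adjusted p between 0.00506 and 0.0402. With the 2 probe sets averaged the adjusted p for the gene was 0.00539. Over all member probe sets, 5 of 77 passed the threshold, each lower in stroma, against 9.21% of all tested probe sets (4.70% lower and 4.51% higher in stroma).

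EEF1A1 delivers charged tRNA to the ribosome and is among the most abundant proteins of a cell. Its brightest probe set was also lower in stroma in all 6 cows, but by little. Its signal ran from 11.14 to 12.02 in stroma and from 12.002 to 12.16 in epithelium, a difference of -0.53 (SE 0.32, adjusted p = 0.356). Copies of this gene elsewhere in the genome could share its probes. With a prior that follows the signal level, the adjusted p of this probe set was 0.0321. The second probe set of EEF1A1 gave -1.11 (SE 0.60, adjusted p = 0.304) and was lower in stroma in 5 of 6 cows. EEF2, which moves the ribosome along the mRNA, averaged 8.47 ± 0.37 in stroma and 9.04 ± 0.20 in epithelium (difference -0.57, adjusted p = 0.339). EEF1E1, named as an elongation factor but part of the complex that holds several synthetases, differed by -0.65 (SE 0.43, adjusted p = 0.404). EEF1A2, the form of muscle and nerve, and the methyltransferases EEF1AKMT3 and EEF2KMT were too dim to be tested.

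The control probe sets of the array read EEF1A1 and EIF4E at 3 places along the transcript, and the difference between tissues varied with the place. EEF1A1 averaged 11.85 ± 0.22 in stroma and 12.16 ± 0.18 in epithelium at the 5′ end, 8.60 ± 1.09 in stroma and 9.04 ± 0.14 in epithelium in the middle, and 8.03 ± 1.44 in stroma and 9.17 ± 0.29 in epithelium at the 3′ end. EIF4E averaged 3.67 ± 1.03 in stroma and 4.54 ± 0.68 in epithelium at the 5′ end, 7.66 ± 0.73 in stroma and 7.92 ± 0.49 in epithelium in the middle, and 8.28 ± 0.45 in stroma and 8.20 ± 0.52 in epithelium at the 3′ end. At no place did the stromal mean exceed the epithelial mean by more than 0.08, and at 5 of the 6 places the SD of the difference over cows was larger than its mean. The 3′ minus 5′ gap is used as a sign of RNA quality. It was 4.61 ± 1.10 in stroma and 3.66 ± 0.59 in epithelium for EIF4E. The gap of EEF1A1 went the other way, at -3.83 ± 1.35 in stroma and -2.98 ± 0.46 in epithelium. It was higher in stroma in 1 of 6 cows. For GAPDH the gap was 3.35 ± 0.90 in stroma and 2.67 ± 0.96 in epithelium and larger in stroma in 5 of 6 cows. Among other checks, which included RNA integrity numbers and scaling factors, the study took a 3′ to 5′ ratio of GAPDH. By that ratio it judged the starting material suitable. That ratio is not the same measure as this gap between log2 RMA values. The part of these gaps in the differences of single members was not tested.

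**Figure D5:**
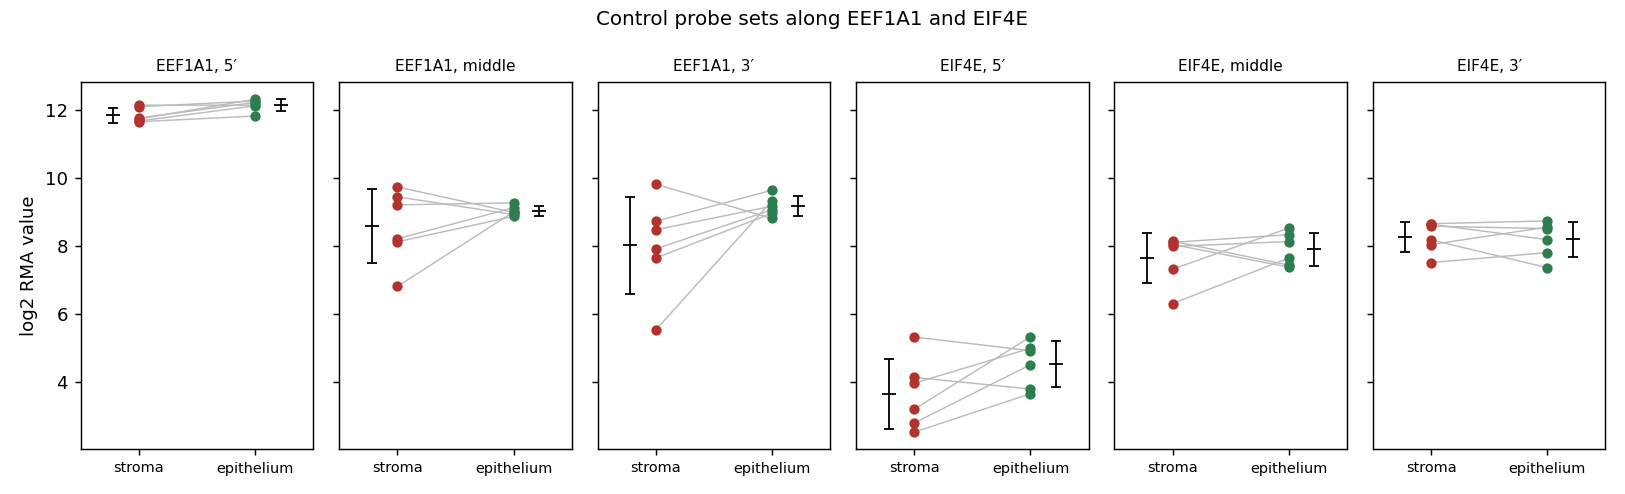
RMA signal (vertical axis, log2) of the array's control probe sets at the 5′ end, the middle and the 3′ end of EEF1A1 and EIF4E, in stroma (red, left) and epithelium (green, right), with grey lines joining the arrays of one cow and black bars for the mean and SD of 6 arrays. The stromal arrays spread more widely than the epithelial arrays at the EEF1A1 3′ end, with an SD of 1.44 in stroma against 0.29 in epithelium.

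Of the 23 tested synthetases 20 had a lower mean in stroma, and 1, the mitochondrial methionyl-tRNA synthetase MARS2, passed the adjusted threshold. MARS2 read 1.52, 4.19 and 6.18 (lowest, median and highest) in stroma, against 4.90, 5.70 and 7.89 in epithelium. The tissues overlapped, but the signal was lower in stroma in all 6 cows, by between 0.35 in cow 5 and 3.62 in cow 6. The difference was -2.05 (SE 0.53, 4.13-fold lower, limma adjusted p = 0.0448). The call did not hold without cow 1, 2, 4 or 6 (adjusted p 0.101 to 0.122), and with no block for the cow the adjusted p was 0.101. MARS2 passed in 4 of the 14 alternatives in which it was tested. MARS1, the enzyme of the cytosol for the same amino acid, averaged 5.68 ± 1.25 in stroma and 6.61 ± 1.15 in epithelium (difference -0.92, adjusted p = 0.349).

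Besides MARS2, 7 mitochondrial synthetases were tested, and 6 of them had a lower mean in stroma, with differences down to -0.84 for AARS2. RARS2 differed by 0.03 (SE 0.56, adjusted p = 0.978). Of the 5 mitochondrial synthetases too dim to be tested, CARS2 was lower in stroma in all 6 cows, at -0.51 (SE 0.18, adjusted p = 0.222 among all probe sets), with signals of 2.87 to 3.54 in stroma and 3.24 to 4.03 in epithelium. The second probe set of CARS2 went the other way, at 0.22 (SE 0.20), and was higher in stroma in 5 of 6 cows.

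The multisynthetase complex of the cytosol was represented by 7 enzymes, of which 5 had a lower mean in stroma and none passed the test. IARS1, the isoleucyl enzyme, read 4.37, 5.94 and 6.59 (lowest, median and highest) in stroma, against 6.20, 7.04 and 8.16 in epithelium. It was lower in stroma in all 6 cows, with a difference of -1.43 (SE 0.43, adjusted p = 0.0761). Its mitochondrial counterpart IARS2 differed by -0.29 (SE 0.34, adjusted p = 0.651), and IARS2 minus IARS1 was higher in stroma in 6 of 6 cows by 1.14 on average (SD 0.78, exact sign-flip permutation p = 0.0312, adjusted p = 0.172 over the 11 pairs). EPRS1, which carries both the glutamyl and the prolyl enzyme in 1 chain, averaged 7.29 ± 0.47 in stroma and 7.59 ± 0.27 in epithelium (adjusted p = 0.659). KARS1, the lysyl enzyme, had the largest difference of the synthetases in the other direction, 0.48, with a 95% interval of -1.06 to 2.03.

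RARS1, the arginyl enzyme, had 2 probe sets with different outcomes. The brighter one, the brightest of all synthetases, ran from 4.75 to 9.73 in stroma and from 8.04 to 8.83 in epithelium, a difference of -0.72 (SE 0.59, adjusted p = 0.504). The stromal arrays spread on both sides of the epithelial ones. The second read 1.30, 3.49 and 4.72 (lowest, median and highest) in stroma, against 3.42, 4.86 and 5.87 in epithelium, lower in stroma in all 6 cows, with a difference of -1.48 (SE 0.37, adjusted p = 0.0397). Its lowest stromal signal was below the array medians. That call did not hold without cow 1, 2, 3, 5 or 6 (adjusted p 0.0847 to 0.0984), and with no block for the cow the adjusted p was 0.131. This probe set passed in 3 of 13 alternatives.

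The other synthetases of the cytosol were 8 tested genes, each with a lower mean in stroma and none past the threshold. GARS1, the glycyl enzyme, had a difference of -1.55 but a standard error of 0.84, since its stromal signal ran from 2.02 to 8.53, against 6.35 to 8.60 in epithelium (adjusted p = 0.304). SARS1, the seryl enzyme, showed the same kind of spread, with a signal lower in stroma in 5 of 6 cows and higher in cow 5 by 2.01. Its difference was -1.53 (SE 0.69, adjusted p = 0.225), and the adjusted p without cow 5 was 0.0346. WARS1, the tryptophanyl enzyme, which interferon induces in many cells, was lower in stroma in 5 of 6 cows by its brightest probe set, at -1.04 (SE 0.41, adjusted p = 0.162), and its 4 probe sets ran between -1.97 and -0.16. AARS1, the alanyl enzyme, had a difference of -0.08 and a 95% interval of -1.17 to 1.01.

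Of the 79 genes, 24 had more than 1 probe set, and 4 of these had probe sets that differed in sign by more than 1. The 2 probe sets of AARS2 gave -0.84 and 0.30, those of EIF3B 0.95 and -0.31, those of EIF4E2, a homolog of the cap-binding protein, -1.06 and 0.60, and those of EIF4G3, a homolog of EIF4G1, -0.35 and 0.67. None of those that were tested passed the threshold. In each pair at least 1 probe set was too dim to be among those tested, and for EIF4E2 neither was tested.

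The spread between arrays was wider in stroma than in epithelium for 46 of 65 members, against 68.3% of all tested genes. The median SD was 0.87 in stroma and 0.69 in epithelium for the members, and 0.99 in stroma and 0.74 in epithelium for all tested genes.

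Genes that work beside the members were read from lists of 59 genes, of which 46 were measured and 32 tested. Of the 32, 24 had a lower and 8 a higher mean in stroma, and 3 passed the adjusted threshold, all of them lower in stroma, against 9.00% of all tested genes (4.54% lower). ETF1, the release factor that ends translation at a stop codon, read 2.84, 5.49 and 6.36 (lowest, median and highest) in stroma, against 6.66, 7.05 and 7.51 in epithelium, with no overlap, and the difference was -1.97 (SE 0.49, adjusted p = 0.0398). PDCD4, which blocks the helicase eIF4A, read 9.25, 10.22 and 10.63 in stroma, against 10.86, 11.47 and 11.62 in epithelium, also with no overlap, a difference of -1.27 (SE 0.33, adjusted p = 0.0456). ATF3, a transcription factor induced by stress, overlapped between tissues and was lower in stroma in 5 of 6 cows, at -1.75 (SE 0.43, adjusted p = 0.0369).

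None of these 3 calls held for every cow left out, although the difference of PDCD4 stayed between -1.36 and -1.09 over all alternatives. Without 1 cow, ETF1 kept its call only when cow 3 was the one left out (adjusted p 0.0290, otherwise 0.0660 to 0.113), PDCD4 lost it for each cow left out (0.0714 to 0.120), and ATF3 kept it only without cow 3 (0.0156, otherwise 0.0774 to 0.114). With no block for the cow, ATF3 had an adjusted p of 0.243. PABPC1, the poly(A)-binding protein that joins the end of the mRNA to its cap complex, was lower in stroma in all 6 cows at -0.88 without passing the test (adjusted p = 0.147). Of 8 tested genes of the TOR pathway and 4 tested mitochondrial translation factors, 0 passed, and their median differences were -0.27 and -0.10. Of 11 tested targets of the amino acid and stress response, 1 passed, ATF3, and ATF4, the factor translated when eIF2 is phosphorylated, averaged 7.96 ± 0.85 in stroma and 8.40 ± 0.54 in epithelium (adjusted p = 0.565).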

How the data were processed

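The files hold log2 values, which the authors made with RMA and quantile normalization over 24 arrays and deposited. The 12 arrays analysed here are part of that set, and the number of arrays limits the precision. Array controls were left out, gene symbols came from the platform annotation, and a gene was read by its brightest tested probe set. Detection calls, by which the study filtered, were not analysed here, and the 42% of probe sets with the highest mean were tested instead (10087 probe sets, lowest mean 3.56).

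Fits used limma 3.58.1 in R 4.3.3, with terms for tissue and for the cow, the cow being a fixed block, and eBayes with its default prior. Both tissues of a cow carry the same replicate number in the labels, which sets the pairs. The deviations of a cow's 2 arrays from their tissue means correlated at 0.03 to 0.20. For cows 2 and 3 this correlation was 0.025 and 0.034. The stroma of these cows correlated more highly with the epithelium of another cow, at up to 0.031 and 0.037. The Benjamini-Hochberg adjustment ran over all tested probe sets, and the threshold was an adjusted p of 0.05. Pairs of members were compared within cows by an exact two-sided sign-flip permutation test. The fit was tested on simulated data.

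Members, roles and lists were chosen with earlier results of these data known. The text names members past the threshold, the 5 largest differences of each group and the largest in the other direction, the brightest member of each group, members whose probe sets disagree in sign by more than 1, a list of well-known members and genes of other translation lists past the threshold. EIF5A is on that list and is not analysed here. Other genes named were chosen after their values were seen.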

Additional observations from a re-analysis of the deposited data

Results flagged for a closer look

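Of 78 groups of 6 values examined, 3 held a value that stood apart from the other 5 by Dixon's criterion, for which chance gives about 1 in 20 groups. EEF1E1 read 7.01 in the epithelium of cow 3, against 3.73 to 4.95 in the epithelium of the other cows. WARS1 read 8.61 in the same array, against 6.25 to 7.06 in the other epithelial arrays. EEF1A1 read 12.002 in the epithelium of cow 4, against 12.11 to 12.16 in the others, a small distance in a group that was otherwise very even.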

How the results depend on the processing

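The medians of the 3 groups stayed below 0 under each alternative run, and moved by less than the spread between cows. Centred on each array's median of tested probe sets, they were -0.18 for initiation factors, -0.39 for elongation factors and -0.50 for synthetases. The median of all tested probe sets then moved to -0.0084. The counts moved more. With no replicate block the initiation, elongation and synthetase calls were 2, 2 and 0, the elongation calls being EEF1G and EEF2K (adjusted p 0.0288 and 0.0488), and with the cow as a random block again 2, 2 and 0. A prior with an intensity trend gave 1, 2 and 1, no filter gave 2, 1 and 0, the brightest 5000 probe sets gave 1, 1 and 0, quantile normalization again gave 2, 0 and 0, centring gave 1, 0 and 0, the mean over probe sets gave 2, 2 and 1, and leaving out cows 5 and 6 gave 0, 0 and 0. Leaving out 1 cow gave 0 to 2 initiation factors, 0 elongation factors and 0 to 2 synthetases. Core factors alone gave 2, 0 and 1. Over all tested probe sets 929 passed, 605 to 854 without 1 cow, 606 without cows 5 and 6 and 513 among the brightest 5000. Of those past the threshold, 51.0% were lower in stroma, 41.1% after centring and 40.6% without cows 5 and 6. The median of all probe sets was -0.18, and 0.066 with no filter, -0.31 among the brightest 5000 and -0.0084 centred. Of 498 values of 34 single genes or probe sets under these alternatives, 424 kept their direction and side of the threshold, 57 lost and 11 gained the call, and 6 changed sign: AARS1 centred (0.091), without cow 2 (0.003) and without cow 5 (0.31; -0.42 to 0.31 over the 6 cows left out in turn) and without cows 5 and 6 (0.34), EIF1AX without cows 5 and 6 (0.10) and KARS1 without cows 5 and 6 (-0.33). The cause was not tested. Stromal signals of EIF2B2 (lowest 2.55), MARS2 (lowest 1.52) and the second probe sets of EEF2K (lowest 2.52) and RARS1 (lowest 1.30) reached below the array medians, where the values hold no measure of background.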
